A study of Mus musculus with 6 samples.

Results

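The genes described here are 47 components of the TGF-beta, activin and BMP pathways, taken from a named list of ligands, receptors, SMADs and antagonists by mapping the Ensembl mouse identifiers of 55401 counted genes to symbols. All 47 were matched, and 42 passed the filter on low counts. The samples were NIH3T3 cells, an immortalized line of mouse embryonic fibroblasts, profiled by bulk RNA-seq. EV cells carried the empty vector and were given the vehicle DMSO (n = 2 libraries). TC cells stably expressed TAZ-CAMTA1, a fusion of the transcriptional coactivator TAZ with CAMTA1, and were also given DMSO (n = 1). TC + ATA cells expressed the same fusion and were given 10 μM aurintricarboxylic acid (ATA), a compound under study as an inhibitor of TAZ binding to TEAD (n = 3). Cells were treated for 48 h, starting 16 h after seeding. No source used here says whether the TC cells were 1 clone, and EV cells given ATA were not analysed here, so the compound was seen with the fusion only. Nothing says that the libraries of a group came from separate cultures, so the p-values measure the spread between these libraries, which may be technical.

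TGF-beta, activin and BMP ligands are secreted dimers that bind pairs of type I and type II serine/threonine kinase receptors. The receptors phosphorylate SMAD2 and SMAD3, mainly for TGF-beta and activin, or SMAD1, SMAD5 and SMAD9, mainly for BMPs, and these enter the nucleus with SMAD4. Latent TGF-beta binding proteins tether the inactive ligand to the matrix, secreted antagonists such as follistatins and noggin trap ligands outside the cell, and corepressors such as SKI limit the SMADs in the nucleus. In fibroblasts the TGF-beta arm is known for driving matrix production and the myofibroblast state.

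Library totals ran from 58471484 to 74413193 counts. The EV libraries differed from each other more than the TC + ATA libraries did, with a chi-square per degree of freedom over genes of 61.3 against 5.86 to 6.61 for pairs of TC + ATA libraries. As background for the cell type, 10 of 10 fibroblast markers were at 1 CPM (counts scaled to a library of equal size, per 1e+06 counts) or more in each group, with a summed level of 15780 to 18079 CPM in EV, 21250 in TC and 21170 to 22438 in TC + ATA. They did not move together: in TC against EV 3 were called higher and 3 lower, with log2 differences from -1.47 to 1.21 and a median of 0.07. Of 6 epithelial markers, 0 reached 1 CPM in any group, and of 6 endothelial markers 0 did so in EV and 1 in TC and in TC + ATA. The summed level of 6 leukocyte markers was 9.73 to 9.96 CPM in EV, 12.2 in TC and 13.5 to 18.2 in TC + ATA, with 3, 4 and 4 of them at 1 CPM or more. The markers moved unequally. Lyz2 rose, from 0.495 and 0.249 CPM in EV to 5.66 in TC and 8.40 to 9.59 in TC + ATA, and was the 1 of 5 tested markers called in TC against EV, where their median log2 difference was -0.44. Csf1r measured 3.17 and 2.77 CPM in EV, 1.41 in TC and 0.846 to 1.72 in TC + ATA, and was called lower in TC + ATA against EV. The macrophage and T cell markers Adgre1 and Cd3e were at or under 0.106 and 0.649 CPM. The leukocyte markers Ptprc and Cd68 had a mean of 1 CPM or more in each group. The part of other cell types in the results was not tested. In bulk RNA, fewer cells of a type and less RNA per cell cannot be told apart.

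The promoters of 4 components are printed here, those with the largest differences between TC and EV among components of at least 1 CPM, since promoters are where transcription factors such as TEADs and SMADs can bind: Fstl3 and Nbl1, secreted antagonists that were higher in TC, and Tgfbi and Inhba, a matrix protein and the activin A subunit, that were lower. Each is taken from the 250 bases before the gene's RefSeq start (build GRCm38.p6), on its own strand, 5′ to 3′. For Fstl3, Nbl1 and Tgfbi that start lies 2, 23 and 63 bases inside the GENCODE gene, and the sequence ends where the GENCODE gene begins, so that 248, 227 and 187 bases are shown. No match was lost by this. Capitals mark matches, on either strand, to GGAATG (the TEAD core), TGANTCA (AP-1), CAGAC (the SMAD box, GTCTG on the other strand) or GGCGCC (a GC-rich SMAD site).
Fstl3, chr10:79777024-79777271, plus strand: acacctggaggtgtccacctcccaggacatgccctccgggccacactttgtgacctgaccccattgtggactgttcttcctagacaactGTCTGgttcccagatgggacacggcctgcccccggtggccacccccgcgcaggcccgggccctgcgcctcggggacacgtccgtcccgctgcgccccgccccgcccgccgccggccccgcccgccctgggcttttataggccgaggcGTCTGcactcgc
Nbl1, chr4:139092994-139093220, minus strand: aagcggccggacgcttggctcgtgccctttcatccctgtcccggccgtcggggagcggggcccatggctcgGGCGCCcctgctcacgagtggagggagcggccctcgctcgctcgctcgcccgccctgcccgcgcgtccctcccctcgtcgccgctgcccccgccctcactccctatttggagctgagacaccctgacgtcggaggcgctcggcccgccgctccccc
Tgfbi, chr13:56609336-56609522, plus strand: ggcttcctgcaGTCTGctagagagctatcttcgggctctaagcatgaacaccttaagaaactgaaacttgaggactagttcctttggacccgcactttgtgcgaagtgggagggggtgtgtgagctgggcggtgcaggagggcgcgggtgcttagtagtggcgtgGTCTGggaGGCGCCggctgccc
Inhba, chr13:16011601-16011850, plus strand: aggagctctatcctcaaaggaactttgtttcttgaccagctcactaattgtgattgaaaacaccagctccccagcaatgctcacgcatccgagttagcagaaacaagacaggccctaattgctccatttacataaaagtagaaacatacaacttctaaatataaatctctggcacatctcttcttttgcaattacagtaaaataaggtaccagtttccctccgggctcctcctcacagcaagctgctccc
The Fstl3 window held 2 matches to CAGAC, the Nbl1 window held 1 match to GGCGCC, the Tgfbi window held 2 to CAGAC and 1 to GGCGCC, and the Inhba window held none of these letter strings. Of the components, 33 had an entry, with 45 promoters in all. CAGAC was in 22 of these 45 (48.9%) against 42.2% of all 32851 promoters of the same length, and GGCGCC in 11 (24.4%) against 9.59%. GGAATG was in 0 of 45 against 12.6%, and TGANTCA in 0 of 45 against 6.75%. By component, CAGAC was in 18 of 33 and GGCGCC in 10 of 33, and 2 overlapping Ltbp4 windows held the same GGCGCC site. The promoters compared were not matched for their content of G and C. A match is a description of the letters, and the lack of one says only that the letters were not in this window.

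The components ranged widely in level. In the group where each was highest, 7 had a mean of at least 100 CPM, 30 had at least 5 CPM, 4 lay between 1 and 5 CPM, and 13 lay under 1 CPM. The last set held most of the BMP ligands. Bmp2, Bmp3, Bmp5, Gdf6 and Gdf10 had at most 8 counts in a library and were not tested.

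TC against EV asks how cells with the fusion differed from cells without it. Among components of at least 1 CPM, the largest differences were in genes for secreted proteins. The activin and myostatin antagonist Fstl3 and the BMP antagonist Nbl1 were over 4 times as high in TC, and the matrix protein Ltbp2, the nuclear corepressor Tgif1 and the BMP antagonist Grem1 were over 2 times as high. Inhba, Tgfbi and Fst fell to under 50% of the EV level. With edgeR's quasi-likelihood test at an adjusted p of at most 0.05 (Benjamini-Hochberg), 23 of the 42 tested components were called, against 28.0% of all 18539 genes tested. Of the 23, 12 were higher in TC (14.8% of all genes were) and 11 lower (13.2% of all genes). Among genes with a mean of at least 5 CPM in some group, 66.7% of the components and 40.4% of all genes were called. The median log2 difference was 0.14 over the tested components and -0.03 over all genes. Only Nbl1, Fstl3 and Chrdl1 were called with an absolute log2 difference of at least 2, which 3.64% of all genes reached. The TC group was a single library, assumed to vary as the others did.

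**Figure D1:**
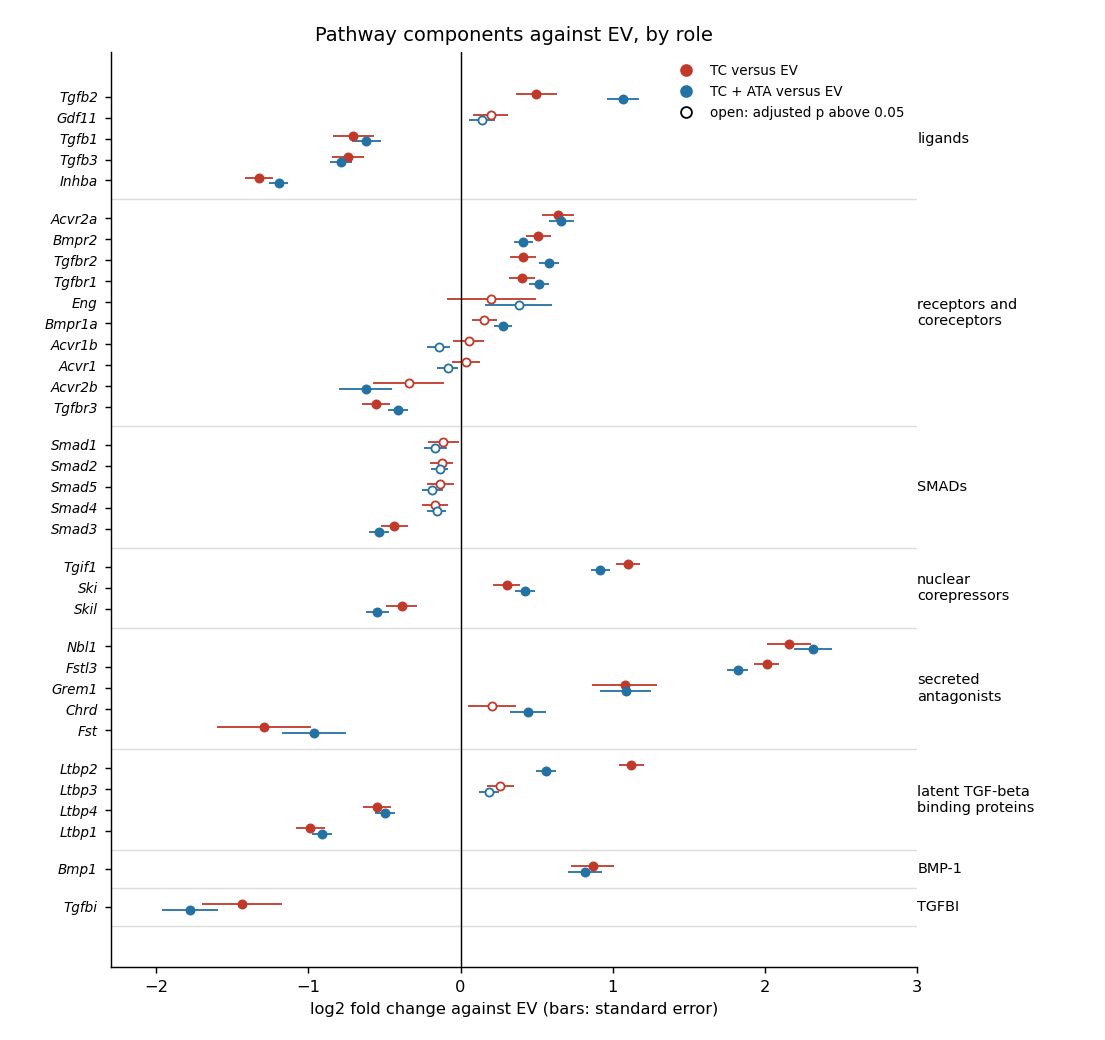
Log2 fold change against EV (x axis) of the tested components of at least 1 CPM, grouped by role, for TC (red) and TC + ATA (blue), with the standard error of the edgeR fit as the bar, filled points at an adjusted p of at most 0.05 and open points above it. Nbl1 and Fstl3 lie farthest to the right in both comparisons, which share the EV libraries, Tgfbi and Inhba lie to the left, and Tgfb2 and Ltbp2 have their points well apart.

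The ligands were mostly low or lower. TGF-beta 1 (Tgfb1), the most studied isoform, measured 23.2 and 19.8 CPM in EV, 13.2 in TC and 13.6, 15.0 and 13.3 in TC + ATA, and fell by 0.71 on the log2 scale in TC (SE 0.135, adjusted p = 0.00434). Tgfb3 measured 37.1 and 38.3 CPM in EV, 22.6 in TC and 23.3, 20.8 and 21.5 in TC + ATA (log2 difference -0.74 in TC, SE 0.104, adjusted p = 0.000775). For both isoforms the EV libraries were higher than every library with the fusion, and the TC library lay just below the ATA libraries for Tgfb1 and among them for Tgfb3. Inhba, which encodes the subunit that forms activin A and lies on chromosome 13 from 16011851 to 16031621 (GRCm38, as for all gene positions here), measured 57.8 and 59.2 CPM in EV, 23.4 in TC and 24.9, 26.1 and 25.7 in TC + ATA. It fell by 1.32 in TC (SE 0.090, adjusted p = 1.03e-05), and the EV libraries did not overlap the others.

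Tgfb2 (chromosome 1, 186622792 to 186705989) was the ligand that went the other way. Its level was 10.7 and 12.4 CPM in EV, 16.3 in TC and 26.3, 24.0 and 22.3 in TC + ATA. The 3 groups did not overlap, with TC between the others. The log2 difference in TC was 0.50 (SE 0.133, adjusted p = 0.0218), a call lost with scaling by library size, in fits of the 2 groups alone and with a replicate block. Per kilobase of exon, the ratio of Tgfb2 to Tgfb3 was 0.168 and 0.189 in EV, 0.423 in TC and 0.659, 0.675 and 0.606 in TC + ATA, so that Tgfb3 stayed the more abundant isoform per length in each library. Gdf11, a ligand of activin receptors, measured 20.1 and 21.7 CPM in EV, 24.0 in TC and 21.2 to 24.1 in TC + ATA and was not called. Bmp4, Bmp6, Bmp7, Inhbb and Gdf5 lay under 1 CPM and were not called in TC. Thus 1 of 10 tested ligands was higher and 3 lower, against 14.8% and 13.2% of all genes tested.

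**Figure D2:**
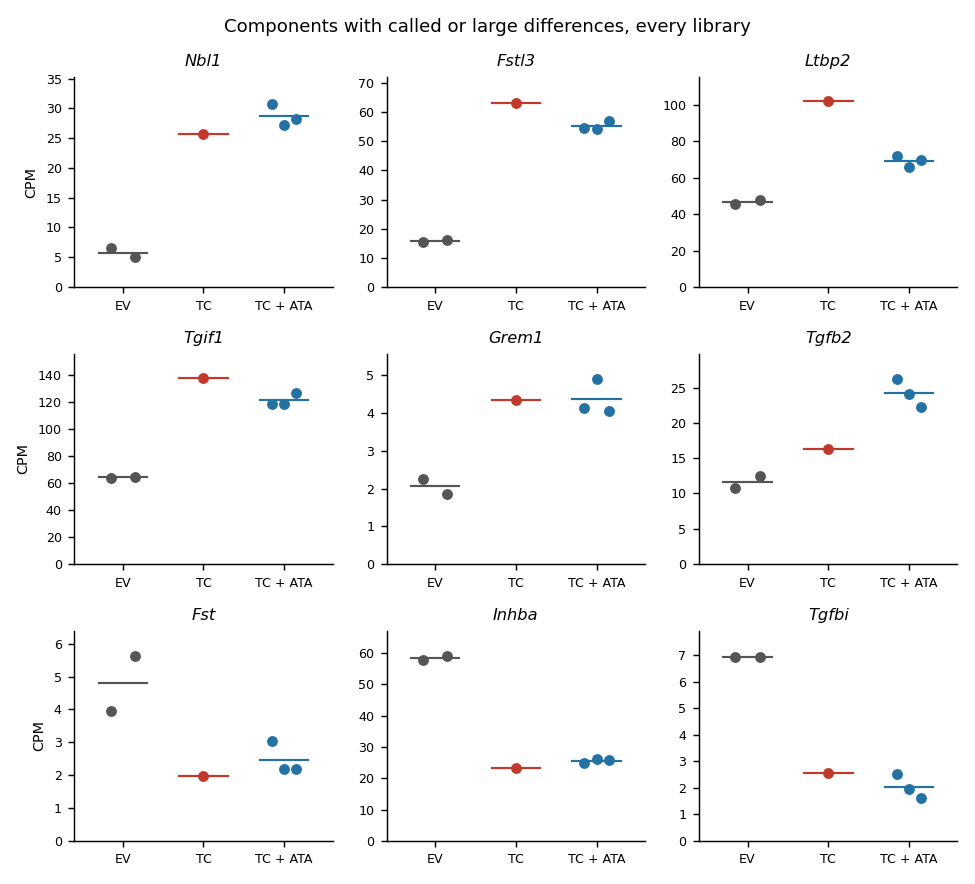
CPM from 0 on a linear axis of 9 components, 1 point per library, with a line at each group mean (EV n = 2, TC n = 1, TC + ATA n = 3). Nbl1, Fstl3, Tgif1 and Grem1 sit higher in every library with the fusion than in EV, Fst, Inhba and Tgfbi sit lower, Ltbp2 with ATA lies between EV and TC, and Tgfb2 is highest with ATA.

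Among receptors, 4 of 11 were higher in TC and 1 was lower. The 45.5% called stands beside 28.0% of all genes tested. Of genes of at least 5 CPM 40.4% were called, but that is not a like set, since Acvr2b, Eng and Bmpr1b lay under 5 CPM. Tgfbr2, the type II receptor that binds TGF-beta, measured 80.9 and 81.7 CPM in EV, 108 in TC and 128, 121 and 115 in TC + ATA (log2 difference 0.41 in TC, SE 0.085, adjusted p = 0.00661). Its type I partner Tgfbr1 measured 27.1 and 26.0 CPM in EV, 35.1 in TC and 37.9, 37.9 and 38.2 in TC + ATA (0.40, SE 0.084, adjusted p = 0.00691). Of the type II receptors for BMPs and activins, Bmpr2 rose by 0.51 (SE 0.080, adjusted p = 0.00149) and Acvr2a by 0.64 (SE 0.106, adjusted p = 0.00203). Acvr2b did not follow them (-0.34, adjusted p = 0.331). For Tgfbr2, Tgfbr1, Bmpr2 and Acvr2a the EV libraries were lower than every library with the fusion. In fits of TC and EV alone, the calls of Tgfbr1 and Tgfbr2 were lost with edgeR and DESeq2, and those of Bmpr2 and Acvr2a with DESeq2. A replicate block also ended the calls of Tgfbr1 and Tgfbr2. In Acvr2a, 446 of 5686 exonic bases overlap Orc4 on the opposite strand, which measured 47.4 to 51.6 CPM.

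The coreceptor Tgfbr3 (betaglycan), which presents TGF-beta 2 to the signalling receptors, was the receptor that fell. It measured 95.1 and 97.6 CPM in EV, 65.5 in TC and 76.4, 73.3 and 68.1 in TC + ATA (log2 difference -0.56 in TC, SE 0.092, adjusted p = 0.00198). Its EV libraries lay above all the others. The type I receptors Bmpr1a, Acvr1 and Acvr1b, the type II receptor Acvr2b, the coreceptor Eng and the nearly silent Bmpr1b were not called in TC, with log2 differences from -0.37 to 0.20.

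The SMADs themselves differed little. Smad3, the DNA-binding effector of TGF-beta and activin, measured 103 and 93.5 CPM in EV, 72.7 in TC and 69.5, 67.1 and 66.7 in TC + ATA, and fell by 0.44 in TC (SE 0.089, adjusted p = 0.00605). That call was lost in fits of the 2 groups alone. Smad2, Smad1, Smad5 and the shared partner Smad4 had log2 differences of -0.17 to -0.11 and were not called. The nuclear corepressors all passed the test, in both directions. Tgif1 (chromosome 17, 70844205 to 70853546), which represses SMAD2 and SMAD3 targets, measured 63.5 and 64.5 CPM in EV, 137 in TC and 118, 118 and 126 in TC + ATA. The EV libraries did not overlap the others, and the log2 difference in TC was 1.10 (SE 0.078, adjusted p = 1.32e-05). Ski rose by 0.30 (adjusted p = 0.0312) and its relative Skil, itself a TGF-beta target, fell by 0.39 (adjusted p = 0.0212). Both of these calls depended on the fit: that of Ski was lost in 7 of the 14 alternatives and that of Skil in 5.

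The secreted antagonists held the largest differences. Fstl3 (chromosome 10, 79777272 to 79782630), a follistatin-like protein that binds activin and myostatin, measured 15.3 and 16.0 CPM in EV, 63.1 in TC and 54.6, 54.3 and 56.9 in TC + ATA. Nbl1 (chromosome 4, 139082284 to 139092993), a DAN-family antagonist of BMPs, measured 6.52 and 5.02 CPM in EV, 25.7 in TC and 30.7, 27.3 and 28.2 in TC + ATA. In both genes every library with the fusion stood far above the EV libraries. Fstl3 rose 4.03-fold in TC (log2 difference 2.01, SE 0.081, adjusted p = 7.75e-07), and Nbl1 rose 4.46-fold (2.16, SE 0.146, adjusted p = 1.02e-05). Both calls held under each alternative fit. Fstl3 shares 1157 of its 2445 exonic bases with Prss57 on the opposite strand, and Prss57 was at or under 0.0705 CPM in each library. Grem1 (gremlin 1, chromosome 2, 113746164 to 113758646), a BMP antagonist, measured 2.26 and 1.86 CPM in EV, 4.35 in TC and 4.14, 4.91 and 4.07 in TC + ATA. It rose by 1.08 (SE 0.214, adjusted p = 0.00527), and its EV libraries were below the rest, although DESeq2 on the 2 groups alone did not call it.

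Follistatin (Fst, chromosome 13, 114452290 to 114458951), the other activin trap, moved against Fstl3. It measured 3.96 and 5.63 CPM in EV, 1.96 in TC and 3.03, 2.17 and 2.20 in TC + ATA, with the EV libraries above the rest, and fell by 1.29 in TC (SE 0.309, adjusted p = 0.0134). Per kilobase of exon, Fstl3 stood at 7.26 and 5.32 times the level of Fst in EV, 60.4 times in TC and 33.8, 46.9 and 48.5 times in TC + ATA. Chrdl1, a chordin-like BMP antagonist, had 24 and 23 counts in EV, 1 in TC and 2, 4 and 6 in TC + ATA. The ratio of TC to EV was 0.0463, with an exact 95% counting interval of 0.00115 to 0.271, and the call (adjusted p = 0.0261) was lost with DESeq2 and with a replicate block. Chordin (Chrd) measured 8.26 and 10.8 CPM in EV and 11.0 in TC and was not called. Noggin (Nog) had 3 and 0 counts in EV, 10 in TC and 7, 8 and 10 in TC + ATA, and was not called in TC (adjusted p = 0.143) except without EV replicate 1 (adjusted p = 0.0414).

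**Figure D3:**
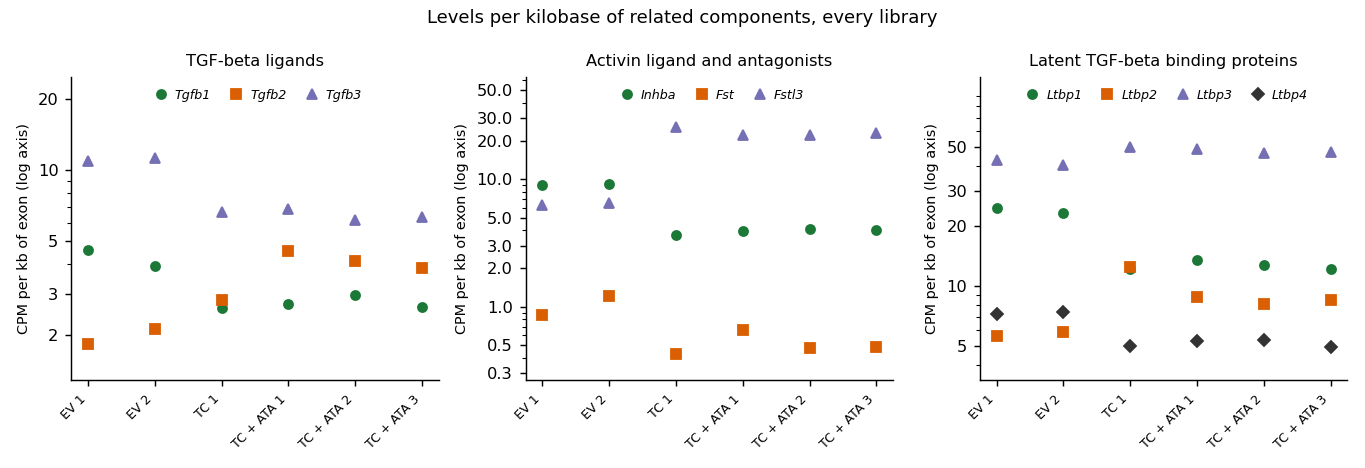
CPM per kilobase of exon (log axis) in each library for the TGF-beta ligands, for activin's subunit Inhba with Fst and Fstl3, and for the latent TGF-beta binding proteins. Fstl3 lies below Inhba in EV and above it in every library with the fusion, and Ltbp2 reaches the level of Ltbp1 in TC, where their ratio was 1.03, but not in TC + ATA, where it was 0.638 to 0.699.

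The matrix-associated components split as well. Ltbp1, which stores latent TGF-beta in the matrix, measured 264 and 247 CPM in EV, 129 in TC and 143, 135 and 129.7 in TC + ATA (log2 difference -0.99 in TC, SE 0.095, adjusted p = 8e-05). Ltbp2 (chromosome 12, 84783212 to 84876532), a family member that does not bind latent TGF-beta and associates with elastic fibres, measured 45.6 and 47.8 CPM in EV, 102 in TC and 71.7, 66.0 and 69.4 in TC + ATA. Here the 3 groups did not overlap, and TC was highest. Ltbp2 rose by 1.12 in TC (SE 0.083, adjusted p = 1.62e-05). Per kilobase of exon the Ltbp2 to Ltbp1 ratio was 0.226 and 0.253 in EV and 1.03 in TC. Ltbp4 fell by 0.55 (SE 0.092, adjusted p = 0.00208), a call lost with DESeq2 on the 2 groups alone, and Ltbp3, the most abundant of the family at 365 to 452 CPM, missed the threshold (0.26, adjusted p = 0.0534) but was called in 6 of the 14 alternatives, and in 8 of 14 against EV with ATA.

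Bmp1, a protease that trims procollagens and cleaves chordin rather than a BMP ligand, measured 112 and 146 CPM in EV, 236 in TC and 231, 212 and 241 in TC + ATA. It rose by 0.87 (SE 0.141, adjusted p = 0.00182), and its EV libraries, though well apart from each other, were below the rest. Tgfbi (chromosome 13, 56609523 to 56639562), a matrix protein named for its induction by TGF-beta, measured 6.94 and 6.94 CPM in EV, 2.56 in TC and 2.52, 1.97 and 1.61 in TC + ATA. It fell by 1.44 (SE 0.262, adjusted p = 0.00344), with the EV libraries above all the others.

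TC + ATA against TC asks how fusion cells given ATA differed from those given vehicle, against the single TC library. The same library enters TC against EV with the opposite sign, so a fall in TC and a rise with ATA, or the reverse, are not independent. Ltbp2 was lower with ATA and was the only component called, 1 of 42 against 0.583% of all genes tested (0.426% higher and 0.156% lower). Its 3 ATA libraries, at 66.0 to 71.7 CPM, lay between EV and the 102 CPM of TC, a log2 difference of -0.56 (SE 0.078, adjusted p = 0.0184 with edgeR). Over the alternatives its log2 difference ran from -0.59 to -0.53 and its adjusted p from 1.56e-14 to 0.234. The call was lost with scaling by library size (adjusted p = 0.0564), with a replicate block, and without each ATA library in turn (adjusted p = 0.0891, 0.155 and 0.158 without replicates 1, 2 and 3). In Ltbp2, 764 of 8184 exonic bases overlap D030025P21Rik on the opposite strand, which measured 0.739 to 1.34 CPM.

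At an unadjusted p under 0.05 there were 4 of 42 components (9.52%), Ltbp2, Tgfb2, Tgif1 and Fstl3, a share next to the 9.61% of all genes. Tgfb2, at 22.3 to 26.3 CPM with ATA against 16.3 in TC, had a log2 difference of 0.57 (SE 0.129) and an adjusted p of 0.125 in edgeR, but was called by DESeq2 on all libraries (adjusted p = 0.0157), without a filter on low counts, in fits of the 2 groups alone, and without either EV library. The log2 difference of Tgfb2 was 0.56 to 0.58 in those fits. They also called more genes as a whole, such as 7.93% with edgeR on the groups alone and 1.23% without a filter, against 0.583% in the fit used above. Fstl3 and Tgif1 were lower with ATA in 3 of 3 libraries, by log2 differences of -0.19 (adjusted p = 0.475) and -0.18 (adjusted p = 0.477). Nbl1 (0.16, adjusted p = 0.778), Inhba (0.13, adjusted p = 0.678), Grem1 (0.01, adjusted p = 0.995) and Bmp1 (-0.05, adjusted p = 0.948) did not pass the test either. Of the 30 components with at least 5 CPM, the ATA libraries all lay above the TC library for 11, all below it for 10, and on both sides of it for 9. The same split over all genes was not made, so these counts are not a result about the components. The median log2 difference was -0.03 over the tested components and 0.00329 over all genes.

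TC + ATA against EV shares the EV libraries with the first comparison, so the values of both are given side by side and are not independent. It called 27 of 42 components by edgeR's test (15 higher and 12 lower), against 36.6% of all genes (18% higher and 18.6% lower). Fstl3 was 1.82 higher on the log2 scale (SE 0.067, adjusted p = 2.14e-07) where it was 2.01 higher in TC, and Nbl1 was 2.32 higher where it was 2.16 higher in TC. Inhba was at -1.19 (adjusted p = 1.26e-06) against -1.32 in TC, Ltbp1 at -0.91 against -0.99, and Tgfbi at -1.78 against -1.44. Among components of at least 5 CPM, the sizes stood farthest apart for Tgfb2, at 1.07 (SE 0.103, adjusted p = 5.46e-05) against 0.50 in TC, and Ltbp2, at 0.56 against 1.12.

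The components called in TC + ATA and not in TC, all against EV, were Bmpr1a, Chrd, Acvr2b and Bmp6. Bmpr1a, a type I BMP receptor, measured 79.7 and 75.1 CPM in EV and 92.0 to 95.7 with ATA (log2 difference 0.28, adjusted p = 0.00616), against 86.2 in TC. Chrd measured 12.5 to 13.3 CPM with ATA (0.45, adjusted p = 0.0176), and Acvr2b measured 3.48 and 4.59 CPM in EV and 2.44 to 2.84 with ATA (-0.62, adjusted p = 0.0204). In these genes the EV and ATA libraries did not overlap. Bmp6, a BMP ligand, had 6 and 2 counts in EV, 10 in TC and 21, 34 and 17 with ATA, all under 1 CPM, and was called at 2.74 (SE 0.699, adjusted p = 0.014). Bmp6 shares 224 of 3900 exonic bases with Txndc5 on the opposite strand, which measured 340 to 440 CPM. Chrd shares 239 of 6258 with Thpo on the opposite strand, at 0.588 to 2.96 CPM and 1.84 higher in TC + ATA than in EV. The use of strand in counting is not known, and the part of these neighbours in the counts was not tested. The calls of Bmpr1a, Chrd, Acvr2b and Bmp6 were each lost in at least 1 alternative, that of Bmp6 without EV replicate 2 or TC + ATA replicate 2. The difference between the TC and the TC + ATA libraries in these genes did not pass the test (adjusted p = 0.672, 0.678, 0.752 and 0.664 for Bmpr1a, Chrd, Acvr2b and Bmp6).

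Genes of the same pathways outside the 47 were read from lists of other ligands, receptors, SMAD regulators, antagonists and reported targets. All these lists were chosen with earlier results of these data known, so their shares beside those of all genes only describe them. Of 10 other receptors and coreceptors tested, 3 were higher and 2 lower in TC, against 14.8% and 13.2% of all genes. Acvrl1 (ALK1), a type I receptor for BMP9 and BMP10 best known from endothelium, measured 0.936 and 0.590 CPM in EV, 6.19 in TC and 5.26, 5.59 and 4.77 in TC + ATA (log2 difference 3.02, SE 0.250, adjusted p = 3.24e-05). Neo1 (neogenin), a receptor for the RGM coreceptors of BMPs, measured 68.8 and 62.3 CPM in EV, 257 in TC and 294, 281 and 272 in TC + ATA (1.97, SE 0.090, adjusted p = 1.16e-06). Both genes stood higher in every library with the fusion. The RGM coreceptors Rgmb and Rgma were the receptors that fell, Rgmb by 0.95 (adjusted p = 0.000245) and Rgma by 0.45 (adjusted p = 0.0113), the call of Rgma being lost in fits of the 2 groups alone. Of the 16 other SMADs and regulators, 6 were higher and 2 lower in TC, against 14.8% and 13.2% of all genes. Among the former were the ubiquitin ligases Nedd4l (0.86) and Smurf2 (0.84), which target SMADs and receptors for degradation. Among the latter was Pmepa1 (-0.81), a TGF-beta-induced inhibitor of SMAD signalling.

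The other secreted antagonists and modulators went down in TC, 7 of 9 tested being lower and 0 higher, against 13.2% and 14.8% of all genes. Dcn (decorin), a proteoglycan that binds TGF-beta, measured 19.5 and 21.9 CPM in EV, 4.91 in TC and 6.37, 5.87 and 5.61 in TC + ATA (log2 difference -2.07, SE 0.149, adjusted p = 1.39e-05). Thbs1 (thrombospondin 1), an activator of latent TGF-beta, measured 513 and 527 CPM in EV, 152 in TC and 309.5, 336 and 332 in TC + ATA. It fell by 1.78 in TC and was 1.10 higher with ATA than in TC (SE 0.090, adjusted p = 0.00219), with the 3 groups apart from each other. Both differences use the single TC library. Bmper, a BMP-binding protein, fell by 1.50 in TC.

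Reported TGF-beta targets did not move as 1 block. Of 19 tested, 6 were higher and 6 lower in TC, against 14.8% and 13.2% of all genes. The collagen receptor subunit Itga11 measured 15.6 and 13.6 CPM in EV, 3.24 in TC and 7.25, 7.01 and 6.74 in TC + ATA (log2 difference -2.17 in TC, SE 0.157, adjusted p = 1.46e-05), with the 3 groups apart from each other. With ATA against TC, 2 of 19 were called, both higher, where 0.426% of all genes were. They were Itga11 (1.11, adjusted p = 0.0153 with edgeR) and the smooth muscle actin Acta2 (0.97, adjusted p = 0.0303). Both calls were lost with a replicate block and without any 1 ATA library. The fall of Itga11 in TC and its rise with ATA share the single TC library. At an unadjusted p under 0.05 there were 9 of 19 (47.4%), where 9.61% of all genes were.

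Of 14 tested BMP targets, 2 were higher and 5 lower in TC, against 14.8% and 13.2% of all genes. With ATA against TC, 7 of 14 were higher, where 0.426% of all genes were. Their median log2 difference over the 14 was then 0.35, against 0.00329 for all genes. Since the list was chosen with earlier results of these data known, these values are not a test of it. Smad6 and Smad9 are also in the list of SMAD regulators. Smad6, the inhibitory SMAD induced by BMPs, measured 16.9 and 17.8 CPM in EV, 15.5 in TC and 26.0, 26.9 and 24.2 in TC + ATA. It was not called in TC (-0.16, adjusted p = 0.307) and was 0.73 higher with ATA than in TC (SE 0.105, adjusted p = 0.0207), its ATA libraries being above all the rest, although the call was lost with a replicate block and without each ATA library. Smad9 and the dominant-negative helix-loop-helix genes Id1, Id2, Id3 and Id4 rose with ATA against TC by 0.85 to 1.48, as did Atoh8, by 1.25. Of these 6 genes, all but Id3 were lower in TC than in EV, by log2 differences from -1.51 (Id2) to -0.66 (Id1). The fall in TC and the rise with ATA both rest on the single TC library, so they are not independent. The TC call of Smad9 was lost in fits of the 2 groups alone, and the ATA calls of Smad9 and of the 4 Id genes were lost without TC + ATA replicate 3. Against EV, TC + ATA was higher for Smad9 (0.79), Id3 (0.79) and Id1 (0.46), lower for Id2 (-0.59) and Id4 (-0.30), and not called for Atoh8, at 26.4 to 28.2 CPM with ATA against 24.9 and 27.2 in EV.

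**Figure D4:**
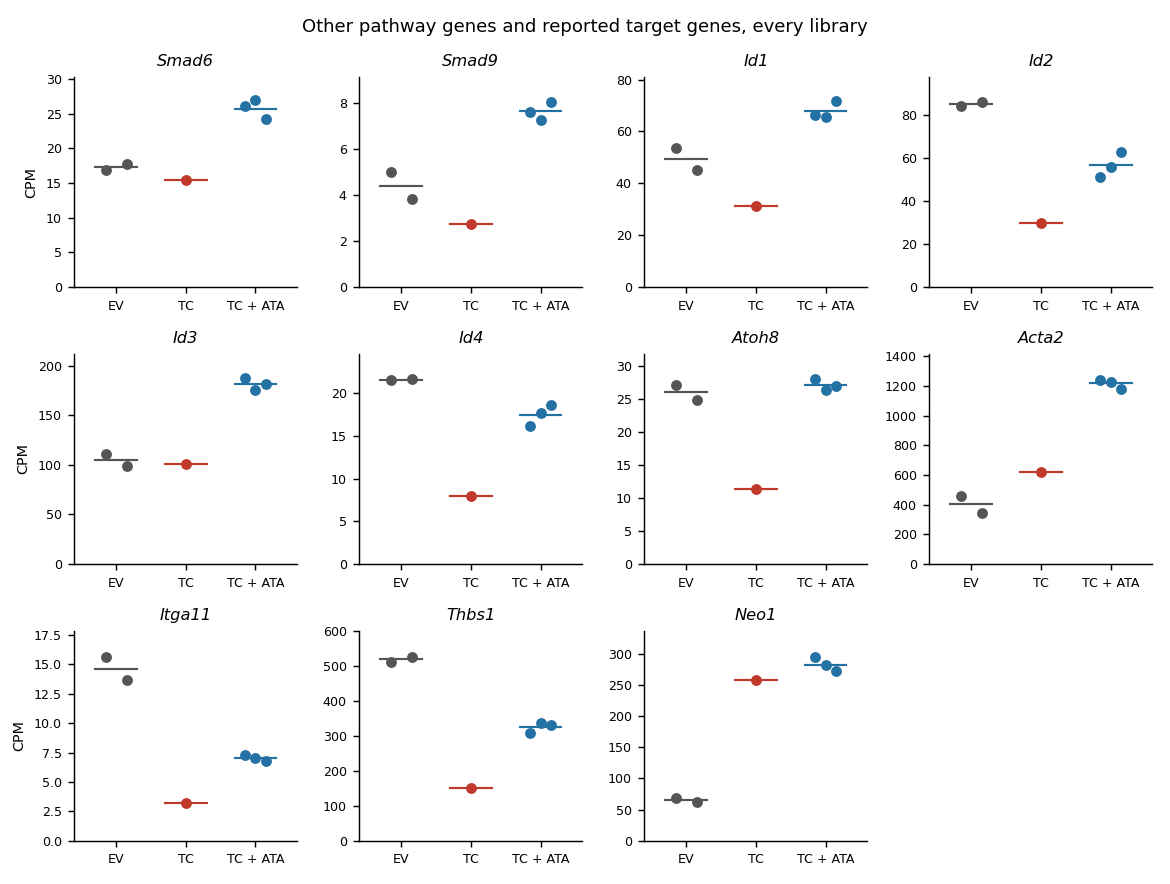
CPM from 0 on a linear axis of 11 pathway genes and reported targets outside the 47 components, 1 point per library with a line at each group mean. Neo1 sits higher in TC and TC + ATA than in EV, Thbs1 and Itga11 are lowest in TC, and Smad6 and Acta2 are highest in TC + ATA.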

How the data were processed

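RNA was extracted from NIH3T3 cells and sequenced as paired ends. The authors aligned the reads to the mouse genome (GRCm38, mm10) with HISAT2 (version 2.2.1 per the submitters' processing notes) and deposited raw counts per gene from featureCounts, 1 file per library. The annotation release, the use of strand and the handling of multiply mapped reads are not given in the sources used here. The study tested genes with DESeq2 and ranked them for gene set analysis with limma.

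Symbols, positions and exon lengths came from GENCODE M21 (GRCm38), which held 55141 of the 55401 genes. Counts were filtered with filterByExpr, scaled by TMM and fitted across all 6 libraries in edgeR 4.0.16 (R 4.3.3) by the quasi-likelihood test, with Benjamini-Hochberg adjustment over 18539 genes and a call at 0.05. On simulated data the fit was tested for TC against EV only, with changes shared by all libraries with the fusion. That simulation does not cover TC + ATA against TC. DESeq2 1.42.0 was an alternative, with other scalings and filters, fits of the compared groups, a replicate block and leaving out each replicate. CPM values use the TMM-scaled totals. With 2 EV and 3 TC + ATA libraries an exact two-sided permutation test cannot go below 0.2, so none is given. Intervals cover counting error only. The components and all gene lists were chosen with earlier results of these data known. Values in every library were given, by rule, for components of at least 1 CPM called in TC against EV with an absolute log2 difference of at least 1, for those called with ATA against TC, and for those of at least 5 CPM at an unadjusted p under 0.05 there. In the other lists, up to 3 genes of at least 5 CPM with the largest called difference in TC against EV were named, and all called with ATA. Some genes that these rules name are not reported here. Further values were chosen after they were seen.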

Additional observations from a re-analysis of the deposited data

How the results depend on the processing

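Of the calls among the components, 12 of 23 in TC against EV, 22 of 27 in TC + ATA against EV and 0 of 1 in TC + ATA against TC held under every alternative fit. The 12 were Tgfb1, Tgfb3, Inhba, Tgfbr3, Tgif1, Fst, Fstl3, Nbl1, Ltbp1, Ltbp2, Bmp1 and Tgfbi. In TC against EV, DESeq2 on these groups alone called 12 (5 higher, 7 lower), and 2409 genes in all, against 5191 in edgeR on all libraries. With edgeR on all libraries, an absolute log2 difference of at least 2 as a further limit left 3 (2 higher, 1 lower), and 3.64% of all genes. In TC + ATA against TC the count was 0 with scaling by library size (0 lower), 2 without a filter (1 higher), 2 with DESeq2 on all libraries (1 higher), 2 with edgeR on the groups alone (1 higher; 7.93% of all genes were called there) and 4 with DESeq2 on the groups alone (2 higher, Tgfb2 and Tgfbr2, and 2 lower, Tgif1 and Ltbp2; 1454 genes in all, against 108 in edgeR on all libraries), and ran from 0 to 3 (0 to 1 higher, 0 to 2 lower) when 1 library was left out. In that comparison, 0.507% of all genes were called with scaling by library size, 1.23% without a filter and 320 genes by DESeq2 on all libraries. Replicate numbers 1 and 2 occur in EV and in TC + ATA. The deviations of same-numbered libraries from their group means had correlations of -0.029 and -0.0861 over genes. With 2 EV libraries the deviations in EV mirror each other, and TC has 1 library. These values therefore cannot show whether a shared number marks a shared culture or batch. A replicate block called 17 components in TC against EV (8 higher, 9 lower), 0 in TC + ATA against TC (0 lower) and 23 in TC + ATA against EV. Of all genes, it called 17.2%, 0.216% and 25.1% in these comparisons. Scaling by library size moved the median of all genes in TC against EV by -0.108. Signs turned only in genes without a call. In TC against EV they turned for Bmpr1b (0.34 with the block, -0.86 to 0.36 when 1 library was left out), Acvr1 (-0.0719 by library size), Acvr1b (-0.0564 by library size, -0.00357 to 0.0977 with 1 library left out) and Id3 (-0.138 to 0.0132 with 1 left out). In TC + ATA against TC, the values with 1 library left out ran from -0.30 to 0.51 for Gdf5, -0.0900 to 0.00217 for Gdf11, -1.06 to 0.40 for Bmpr1b, -0.0116 to 0.0604 for Acvr2a, -0.0123 to 0.0372 for Smad4 and -0.0846 to 0.0593 for Grem1. Smad2 turned by library size (0.00849), and Nog (0.20), Cd109 (0.0585) and Gdf15 (0.17) with the block. In TC + ATA against EV, Bmpr1b was at 0.0180 with the block and -1.43 to 0.27 with 1 library left out, and Atoh8 at -0.0263 by library size. The cause of these changes was not tested. With 1 TC library, a difference between TC and either group cannot be told apart from a difference of that library, and genes under 1 CPM were measured by few counts.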

Other observations

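Some pathway genes outside the components are given here after their values were seen. Gdf15, a stress-responsive member of the TGF-beta superfamily, measured 0.575 and 0.380 CPM in EV, 1.73 in TC and 1.83, 1.57 and 1.51 in TC + ATA. It was the 1 of 6 tested other ligands called in TC against EV, where 28.0% of all genes were (log2 difference 1.85, SE 0.348, adjusted p = 0.00399 in edgeR). DESeq2 on the groups alone did not call it (adjusted p = 0.0718). The coreceptor Cd109, which binds TGF-beta, measured 159.7 and 132 CPM in EV, 218 in TC and 217, 214 and 209 in TC + ATA (0.58, SE 0.109, adjusted p = 0.00412).

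Among antagonists lower in TC, the follistatin-like glycoprotein Fstl1 measured 411 and 455 CPM in EV, 229 in TC and 245, 246 and 239.8 in TC + ATA (-0.92, SE 0.094, adjusted p = 0.000119). The libraries of EV and those with the fusion did not overlap in any of these genes.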
